A study of Mus musculus with 2 samples.

Results

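MHC class II-high macrophages of the mouse gingiva are described here in 1 library from diabetic and 1 library from normoglycemic mice. They were chosen by transcript counts alone, and 1000 of the 21208 cells kept in the series met the rule (393 of 10260 diabetic cells and 607 of 10948 normoglycemic cells). A kept cell had at least 500 unique molecular identifiers (UMIs, each counting 1 captured transcript), at least 200 genes and at most 15% mitochondrial UMIs. A macrophage had at least 10 UMIs of the complement genes C1qa, C1qb and C1qc per 10000 UMIs of the cell, under 3% of its UMIs from the neutrophil genes S100a8 and S100a9, and no UMI of the T-cell gene Cd3e or the B-cell gene Cd79a. Of 2699 such macrophages, members were those with at least 100 UMIs of Cd74, H2-Aa and H2-Ab1 per 10000, fewer than 3 UMIs of Gpnmb and fewer than 3 UMIs of Lyve1, Folr2 and Cd163 together. The values of these 14 genes chose the members, so they are given only as a description.

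Gingival cells were profiled by droplet single-cell RNA sequencing of transcript 3' ends after 2 weeks of bacterially induced periodontal inflammation followed by 2 weeks of waiting. The diabetic library came from mice made diabetic with streptozotocin, which destroys insulin-producing beta cells, and the normoglycemic library from mice that were not. Both groups were CD11CCre-/-;FoxoLL on a mixed C57B6 - FVB background, that is, they carried loxP-flanked Foxo1 and no Cre, so Foxo1 was intact in all of them. Each library pooled 4 mice and held sorted CD45+ leukocytes into which CD11c+CD45+ cells had been enriched to 20%, with 10000 cells loaded. CD11c is the product of Itgax, so the sort can set the share of any cell type that carries it. With 1 library per group there is no replicate check and no test between the groups. All intervals are 95% intervals that cover counting error only, not the spread between mice.

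MHC class II molecules present peptides from endocytosed proteins to CD4+ T cells. The alpha and beta chains assemble on the invariant chain Cd74, cathepsins trim it, and H2-DM then exchanges its remnant for antigenic peptide, while the coactivator Ciita switches the whole gene set on. In barrier tissues macrophages with high class II are often replenished from Ccr2+ blood monocytes and stand apart from the perivascular macrophages that carry Lyve1, Folr2 or Cd163.

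The members were deeply covered, with medians of 12975 UMIs per cell in the diabetic library and 12053 in the normoglycemic library, summing to 5260586 and 7890996 UMIs. Other macrophages had medians of 9757.5 and 11320 UMIs. Levels below are CPM, the UMIs of a gene per 1000000 UMIs summed over the cells named. Only 32 barcodes were shared between the libraries, and 1 member of each library carried one. Cells of both sexes were present: 57.6% of diabetic and 51.8% of normoglycemic members with sex-linked transcripts were called female, meaning that they held Xist and no Y-linked transcript. Both kinds of transcript were found together in 2.54% of diabetic and 5.93% of normoglycemic members, and no doublet caller was run.

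Macrophage markers outside the rule were present in the members. Csf1r, the receptor for macrophage colony-stimulating factor, had 560 CPM in diabetic and 692 CPM in normoglycemic members, against 58.2 and 112 CPM in dendritic cells picked by their own rule. The markers that define conventional dendritic cells were near 0, with Flt3 at 14.1 CPM in diabetic and 14.7 CPM in normoglycemic members. Dendritic cells had 140 and 103 CPM of Flt3. They were picked for at least 2 UMIs of Flt3, Zbtb46, Cd209a, Clec9a and Xcr1 together, so nothing is read from that contrast. Zbtb46, Xcr1 and Clec9a each stayed at or below 4.06 CPM in the members. The 4 defining dendritic cell markers, which the rule for members did not use, together summed to 19 and 23.4 CPM in members. Other macrophages had 11.7 CPM in the diabetic and 11.2 CPM in the normoglycemic library, so members had more of these markers. The C1q genes behind the macrophage label were part of the rule, and the label was not tested further.

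Transcripts that mark other cells were present as well. Whether they were free RNA, came from doublets or were made by the members was not tested. The Langerhans cell markers Cd207, Epcam, Mfge8 and Il1r2 summed to 447 CPM in diabetic and 409 CPM in normoglycemic members. Other macrophages had 51.3 and 51.7 CPM, and dendritic cells 343 and 779 CPM. Each of the 4 was higher in members than in other macrophages of both libraries. In the members, 21.4% of diabetic and 20.1% of normoglycemic cells held 3 or more of these UMIs. The 10 neutrophil markers summed to 840 CPM in diabetic and 1280 CPM in normoglycemic members, and none of them was at 0. The highest were S100a8 (230 and 442 CPM) and S100a9 (435 and 631 CPM), which the rule itself limits. Mast cell genes summed to 103 CPM in diabetic members against 2.28 CPM in normoglycemic members, and only 0.254% of the diabetic members, a single cell, held 3 or more of these UMIs. The salivary gene Bpifa2 was at 35.0 CPM in diabetic members and at 0 in normoglycemic members. T-cell and B-cell markers summed to at most 141 and 8.87 CPM. Il7r, at 82.3 CPM in diabetic and 115 CPM in normoglycemic members, was the largest part of the T-cell sum. Cd3d, Cd3g, Trac and Trbc2 each reached at most 1.52 CPM. Pax5 was at 0 in both libraries, and Cd79a and Cd3e were at 0 because the rule requires it. Restricted to members with under 10 UMIs of the neutrophil markers, all 30 genes named below between the libraries stayed past 1.5-fold. The part of the other transcripts in the results was not tested.

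Members made up 30.2% of diabetic macrophages (393 of 1303, interval 27.7% to 32.7%) and 43.5% of normoglycemic macrophages (607 of 1396, interval 40.9% to 46.1%). The difference was -13.3 percentage points, with a counting interval of -16.9 to -9.70. Macrophages as a whole were 12.7% of diabetic and 12.8% of normoglycemic kept cells, so the lower share lay within the macrophages. Among macrophages, 41.7% of diabetic and 65.5% of normoglycemic cells reached the class II minimum. The share with 3 or more Lyve1, Folr2 and Cd163 UMIs was 35.5% in the diabetic and 36.1% in the normoglycemic library, whereas Gpnmb-positive cells were 11.5% and 3.30%. The direction was the same in cells called male (-9.46 points) and in cells called female (-15.1 points).

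**Figure D1:**
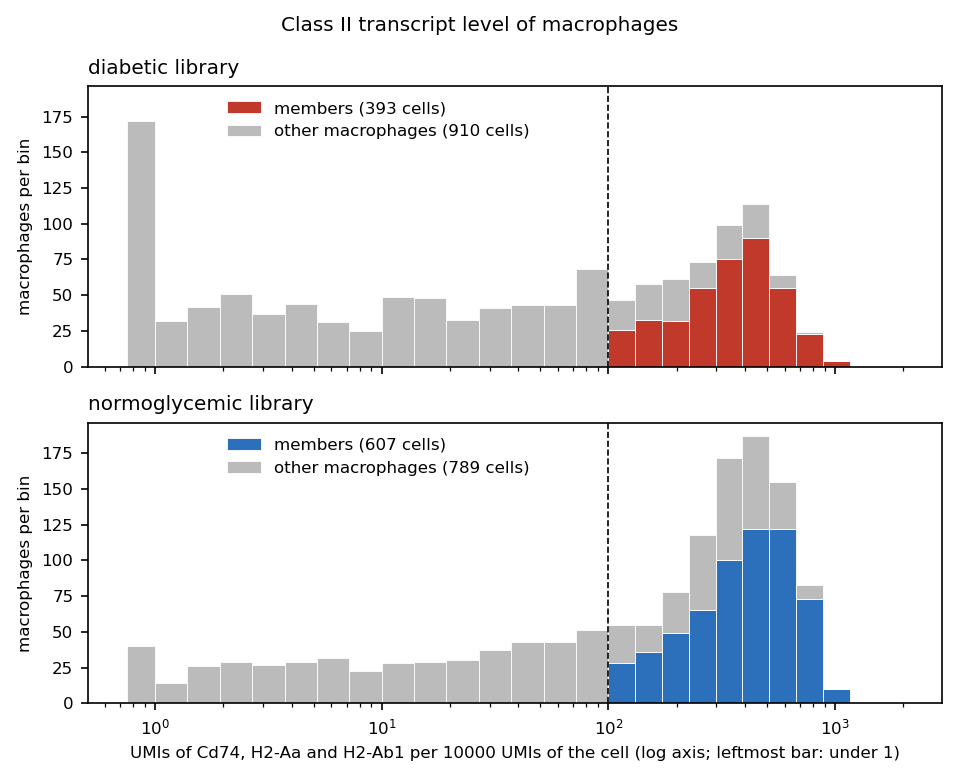
Number of macrophages (vertical axis) by the UMIs of Cd74, H2-Aa and H2-Ab1 per 10000 UMIs of the cell (horizontal log axis; bins are narrower above 100), in the diabetic library above and the normoglycemic library below. Coloured bars are members, grey bars other macrophages, and the dashed line is the minimum of 100; the diabetic library holds more macrophages under it, and 393 diabetic against 607 normoglycemic cells are members.

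Within the members the class II level of the rule had a median of 361 per 10000 UMIs in diabetic cells (range 100.4 to 992) and 410 per 10000 in normoglycemic cells (range 102 to 1967). The C1q level had medians of 80.8 and 73.5 per 10000. The boundary ran through a continuum. There were 21 diabetic and 18 normoglycemic cells from 100 to 125 per 10000, just inside, and 31 diabetic and 27 normoglycemic cells from 75 to 100, just outside. The cells just inside had median C1q levels of 38.3 and 29.2 per 10000, and those just outside 36.2 and 53.1. At the resident-gene limit, 79 diabetic and 157 normoglycemic members held 1 or 2 UMIs of Lyve1, Folr2 or Cd163, while 22 and 61 class II-high macrophages were left out with 3 or 4.

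Class II genes that the rule did not use were high in the members too. H2-Eb1, a class II beta chain, had 239 CPM in diabetic members and 51.4 CPM in other diabetic macrophages, and 341 against 138 CPM in the normoglycemic library. The peptide exchange factor subunits H2-DMa and H2-DMb1 had 523 and 594 CPM in diabetic members, against 172 and 135 CPM in other diabetic macrophages. Their normoglycemic levels were 607 and 689 CPM in members and 306 and 246 CPM in others. Ciita had 77.2 CPM in diabetic members and 21.1 CPM in others, and 87.6 against 41.8 CPM in the normoglycemic library. All 5 measured class II genes outside the rule were at least 1.5-fold higher in members than in other macrophages of both libraries, with median log2 ratios of 2.14 (diabetic) and 1.31 (normoglycemic). The same direction was called for 3.41% of all 5391 genes counted, those at 20 CPM or more, but the rule chose cells on class II, so nothing is read from this.

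The promoters of H2-Eb1, H2-DMb1 and H2-Aa are shown because they let class II genes outside the rule be set beside one of the rule. The letters are from RefSeq on build GRCm38.p6, 5′ to 3′ on the strand of the gene, upstream of its start, with the Y box letters TGATTGG and the X box letters CTAGNAAC in capitals where a search of both strands found them.
H2-Eb1: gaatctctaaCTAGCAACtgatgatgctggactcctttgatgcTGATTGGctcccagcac
H2-DMb1: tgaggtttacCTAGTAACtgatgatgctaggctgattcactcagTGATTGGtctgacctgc
H2-Aa: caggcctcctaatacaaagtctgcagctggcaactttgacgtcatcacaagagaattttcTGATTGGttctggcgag
These stretches lie at chr17:34305763-34305822 on the plus strand, chr17:34153084-34153144 on the plus strand and chr17:34287857-34287933 on the minus strand. The X and Y boxes are the sequences on which the Ciita-containing complex assembles. Of 8 class II genes with a promoter in the table (250 bases before to 50 after the start), 7 held the Y box letters and 4 held both. Among all 32851 promoters, 7.82% held the Y box letters, 3.62% the X box letters and 0.259% both. A match describes letters, not a bound site.

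The rest of the presentation machinery did not follow class II as a block. Of 9 antigen processing proteases and related genes, none was higher in members than in other macrophages of both libraries by 1.5-fold, and 4 were lower (8.74% of all genes counted). Ctsl, a cathepsin that degrades the invariant chain in thymic epithelium, had 127 CPM in diabetic members against 820 CPM in other diabetic macrophages, and 163 against 488 CPM in normoglycemic ones. Ctsb, a lysosomal cathepsin, had 1210 against 3656 CPM and 1636 against 3753 CPM. Ctss, the cathepsin that trims Cd74 in antigen presenting cells, was nearly level at 2085 against 2222 CPM in the diabetic library and 2158 against 1705 CPM in the normoglycemic library. The costimulatory ligand Cd86 had 207 CPM in diabetic members against 69.2 CPM in other macrophages, and 193 against 110 CPM in the normoglycemic library. In all, 4 of 10 measured costimulation genes were higher in the members in both libraries and none was lower, against 3.41% higher and 8.74% lower of all genes counted, from which nothing is read. Of 18 measured class I presentation genes, 2 were higher and none lower in both libraries, beside the same shares of all genes. Their median log2 ratios were 0.56 (diabetic) and 0.30 (normoglycemic), against -0.19 and -0.13 over all genes counted. Nothing is read from this list either.

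Genes beyond class II set the members apart from other macrophages of their own library. By the rule fixed for naming genes, 87 genes were higher (1.61% of those counted) and 161 lower (2.99%), and the 12 clearest of each are described here. Langerin, Cd207, a lectin best known from Langerhans cells, had 268 CPM in diabetic members against 1.65 CPM in other diabetic macrophages, and 193 against 10.8 CPM in the normoglycemic library. Itgax, which encodes CD11c, had 115 against 14.7 CPM and 130 against 16.2 CPM. Mmp12, the macrophage elastase, had 398 against 40.7 CPM and 369 against 38.8 CPM, ratios of 9.78 (8.77 to 10.9) and 9.49 (8.52 to 10.6). The lowest of these 6 ratios was 7.81. Dendritic cells picked by their own rule carried Itgax too, at 87.6 CPM in the diabetic and 119 CPM in the normoglycemic library. They had 17.7 and 132 CPM of Cd207, and 7.61 and 100 CPM of Mmp12. Cd207 lies at chr6:83671215-83677857 on the minus strand and Mmp12 at chr9:7344381-7369499 on the plus strand of GRCm38.

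The other higher named genes had several roles. Dcstamp, a membrane protein needed for fusion of osteoclast precursors, had 205 CPM in diabetic members against 10.7 CPM in other macrophages, and 163 against 20.3 CPM in the normoglycemic library. The collagenase Mmp13 had 139 against 18.4 CPM and 79.7 against 15 CPM. Axl, a receptor for apoptotic cells, had 141 against 21.2 CPM and 181 against 36.8 CPM. Its ligand Gas6 was the other way round, at 20.7 against 265 CPM and 54.0 against 351 CPM. The interferon-induced T-cell attractant Cxcl9 had 198 against 5.77 CPM and 108 against 18.8 CPM, but 24.8% of its diabetic and 44.2% of its normoglycemic member UMIs came from 1 cell. The remaining higher named genes were Bcl2a1a, Zmynd15, Scimp, Klrb1b and Cd72, with ratios from 3.95 to 14.8. Klrb1b was higher still in dendritic cells, at 164 and 212 CPM against 77.0 and 67.4 CPM in diabetic and normoglycemic members. Cxcl9 had 81.1 CPM in diabetic and 190 CPM in normoglycemic dendritic cells. The other higher named genes were lower in dendritic cells than in members of both libraries.

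The 12 lower named genes included chemokines, a scavenger receptor and a growth factor. Pf4, a chemokine, had 272 CPM in diabetic members against 2588 CPM in other macrophages, and 552 against 2356 CPM in the normoglycemic library. Ccl8, a chemokine of resident macrophages, had 35.2 against 396 CPM and 68.6 against 946 CPM. The scavenger receptor Stab1 had 65.4 against 324 CPM and 117 against 477 CPM, and the growth factor Igf1 9.12 against 57.7 CPM and 27.9 against 163 CPM. Ednrb, Cbr2, Serpinb6a, Pmp22, Stard8, F13a1 and Wwp1 completed the set, with ratios between 0.0436 and 0.246. The rule left out cells with 3 or more UMIs of Lyve1, Folr2 and Cd163, so these genes may partly restate the choice of members. Macrophages under the class II minimum that passed both UMI limits had 2464 CPM of Pf4 in the diabetic and 2249 CPM in the normoglycemic library. Their Ccl8 levels were 97.5 and 118 CPM. How far the choice set these differences was not tested.

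Across all genes counted, 184 were at least 1.5-fold higher and 471 lower (8.74%) in members in both libraries. The median log2 ratio was -0.19 in the diabetic and -0.13 in the normoglycemic library. Scaling by trimmed means (TMM) moved all ratios up by 0.18 and 0.14 and turned the counts to 280 higher and 269 lower. The excess of lower genes therefore depended on the scaling, and the named genes did not: all 24 kept their direction and a 1.5-fold difference under it.

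**Figure D2:**
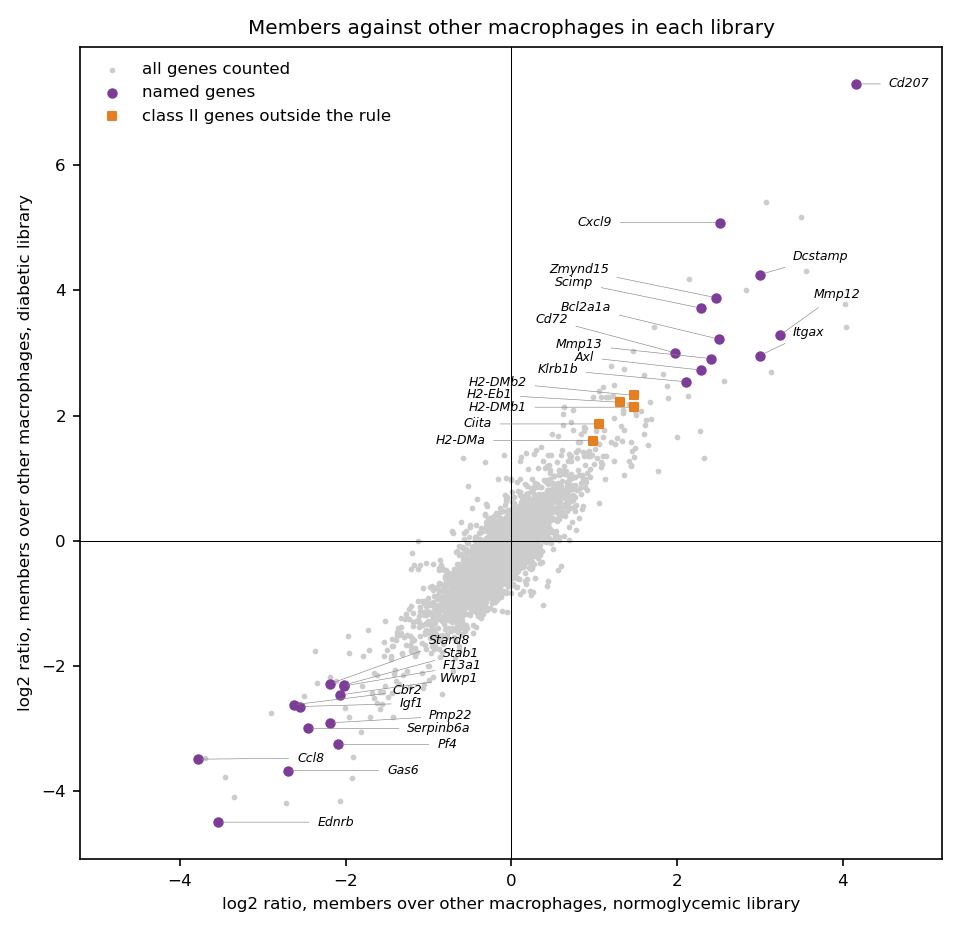
Log2 ratio of CPM of members over other macrophages in the normoglycemic library (horizontal axis) and the diabetic library (vertical axis) for all genes counted (grey), the 24 named genes (purple) and 5 class II genes outside the rule (orange). Both libraries give each named gene the same direction, and Cd207 lies farthest out at 7.30 in the diabetic and 4.16 in the normoglycemic library.

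The members were not uniform. To compare cells at equal depth, each cell was thinned to 2000 UMIs, which left out 15 diabetic and 38 normoglycemic members with fewer. After thinning, Cd207 was found in 11.9% of diabetic members (17.8% unthinned) and 9.84% of normoglycemic members (14.8%). B cells, which should lack it, showed 0.806% in the diabetic library and 0 of 222 cells in the normoglycemic library, which allows up to 1.35% of cells with a UMI (3 counts of the total). Their median depth was 4830.5 and 4787.5 UMIs, and neutrophils showed 0.135% and 0.275% at medians of 3868 and 4536 UMIs. The shares in members were above all of these.

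Cd207+ members differed from Cd207- members in several transcripts. Epcam, the adhesion molecule that Langerhans cells share with epithelium, was found in 22.2% of diabetic Cd207+ members against 1.80% of Cd207- members, and in 26.8% against 3.12% of normoglycemic ones. Its summed level was 246 against 19 CPM in diabetic and 243 against 20.3 CPM in normoglycemic members. Mrc1, the mannose receptor, was instead found in 6.67% against 39.9% of diabetic and 8.93% against 56.5% of normoglycemic cells.

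A larger set carried Mmp12, found in 23.8% of diabetic and 18.1% of normoglycemic members (36.9% and 25.7% unthinned), with no B cell and at most 0.236% of neutrophils holding it. Mmp12+ members had more Mmp13, at 279 against 90.7 CPM in diabetic and 235 against 41.4 CPM in normoglycemic cells. Dcstamp ran with it at 381 against 144 CPM and 390 against 108 CPM, and the chemokine Ccl4 at 15566 against 5438 CPM and 7080 against 2913 CPM. The monocyte chemokine receptor Ccr2 was found in 11.1% of diabetic Mmp12+ against 48.3% of Mmp12- members, and in 37.9% against 53.0% of normoglycemic ones. Cd207 and Mmp12 overlapped without coinciding, since 35.6% of diabetic and 50% of normoglycemic Cd207+ members held Mmp12.

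Members with Ccr2 or Mrc1 transcripts formed the other side. Ccr2 was found in 39.4% of diabetic and 50.3% of normoglycemic members, and Mrc1 in 36.0% and 51.8% (60.1% and 72.0%, and 60.6% and 75.8%, unthinned). In B cells and neutrophils these shares were at most 2.70% for Ccr2 and 3.60% for Mrc1. The 2 went together: Ccr2 was found in 62.5% of diabetic Mrc1+ against 26.4% of Mrc1- members, and in 60% against 39.8% of normoglycemic ones. Ccr2+ members had more of the monocyte marker Ly6c2, at 126 against 21.8 CPM in diabetic and 35.2 against 9.93 CPM in normoglycemic cells. They also had more fibronectin, Fn1, at 1094 against 406 CPM and 1115 against 441 CPM. Ly6c2 was found in only 5.03% of diabetic and 2.11% of normoglycemic thinned members, near the 5.93% and 2.32% of neutrophils. The 8 monocyte markers summed to 1007 and 928 CPM in members, against 896 and 895 CPM in other macrophages. Of these markers, Ccr2 and Ms4a4c were higher and Chil3, Vcan and Hp lower in members of both libraries.

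Retnla, Cxcl9 and Il2ra marked further sets. Retnla+ members, 5.03% of diabetic and 15.6% of normoglycemic cells, had more Ear2, at 469 against 29.7 CPM and 171 against 13.3 CPM. Retnla encodes a resistin-like protein induced by interleukin 4, and Ear2 an eosinophil-associated ribonuclease. Cxcl9+ members, 4.23% and 4.04%, had more of the interferon-induced GTPase Gbp2, at 714 against 51.2 CPM and 533 against 57.2 CPM. Il2ra+ members, 14.8% and 4.57%, had more of the interleukin 12 subunit Il12b, at 125 against 24.3 CPM and 216 against 25.6 CPM, and less Lyz2, at 1174 against 7591 CPM and 1544 against 8761 CPM. Each of these pairs had the same direction in both libraries. Several sets were small, with 19 diabetic and 89 normoglycemic Retnla+ members, 16 and 23 Cxcl9+ members, and 56 and 26 Il2ra+ members. Retnla was found in 1.61% of diabetic B cells and 1.48% of diabetic neutrophils, and in 2.70% and 3.93% of normoglycemic ones. The interval of the diabetic member share, 3.05% to 7.74%, overlapped that of the diabetic B cells (0.196% to 5.70%). It did not overlap that of the diabetic neutrophils (1.02% to 2.08%). The shares of B cells or neutrophils with Cxcl9 and Il2ra reached 0.275% and 1.35%.

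**Figure D3:**
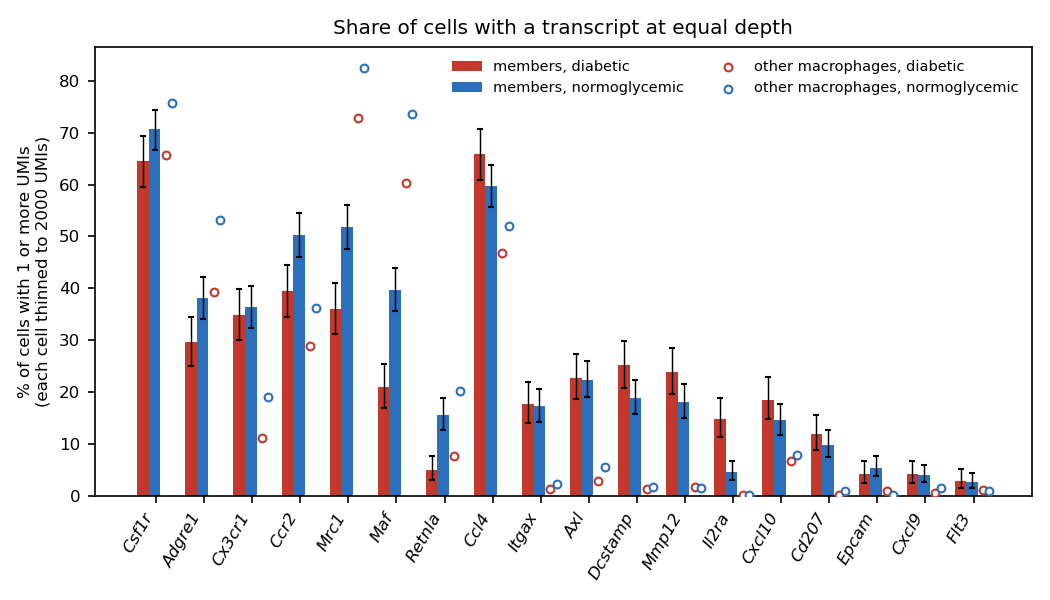
Share of cells with at least 1 UMI of each gene after every cell was thinned to 2000 UMIs (vertical axis, percent), for members (bars with exact binomial intervals; diabetic red, normoglycemic blue) and other macrophages (open circles). Itgax, Axl, Dcstamp, Mmp12, Il2ra and Cd207 are more frequent in members than in other macrophages. In percentage points, Maf, Mrc1, Ccr2, Retnla and Il2ra differ most between diabetic and normoglycemic members.

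Several of these genes also differed with the class II level, which the rule used. Members were split into 3 equal tiers by class II level, with medians of 178, 361 and 573 per 10000 in diabetic and 211, 410 and 643 per 10000 in normoglycemic cells. Cd207 had 49.3, 182 and 554 CPM from the low to the high tier of diabetic members, and 9.29, 63.8 and 465 CPM in normoglycemic members. F13a1, a coagulation factor subunit of monocytes and macrophages, had 496, 158 and 47.1 CPM in diabetic and 563, 309 and 111 CPM in normoglycemic members. H2-Eb1, outside the rule, had 116, 221 and 366 CPM in diabetic and 160, 377 and 449 CPM in normoglycemic members. The pan-macrophage gene Adgre1 and the cytokine Il1b were nearly level over the tiers of each library. Not every gene was ordered by tier in both libraries. Retnla was at 993, 116 and 42.0 CPM in diabetic members and 1337, 1811 and 934 CPM in normoglycemic members.

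**Figure D4:**
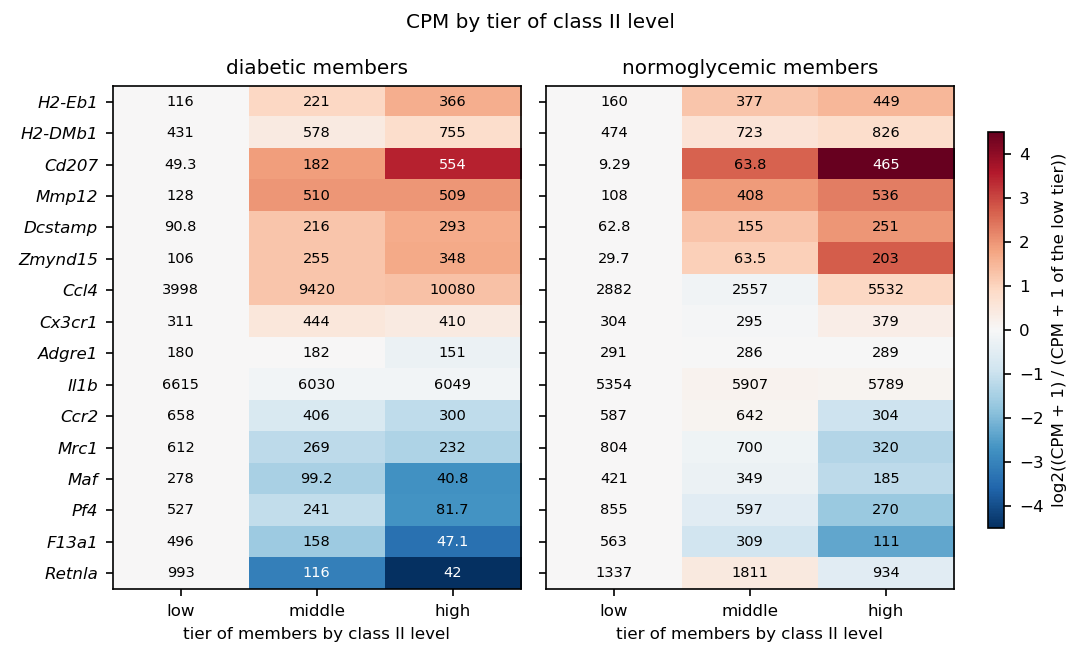
Summed CPM (numbers in the cells) of 16 genes in the low, middle and high tier of members by class II level, in the diabetic library on the left and the normoglycemic library on the right; colour is the log2 ratio to the low tier with 1 CPM added. H2-Eb1, Cd207, Mmp12, Dcstamp and Zmynd15 are higher and Maf, Pf4, F13a1 and Mrc1 lower in the high tier of both libraries.

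Between the libraries, 5374 genes reached 20 CPM in the members of at least 1 of them. Of these, 168 (3.13%) were at least 1.5-fold higher and 401 (7.46%) at least 1.5-fold lower in diabetic than in normoglycemic members, with a median log2 ratio of -0.07. TMM scaling shifted the ratios by 0.05 and gave 215 higher and 308 lower genes, so the split moved with it. The naming rule, which needs a counting interval wholly past 1.5-fold and a level at least as high as in non-macrophages, left 27 higher (0.502%) and 53 lower genes (0.986%). The clearest 15 of each were named.

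Among the named genes, the highest ratio belonged to Il2ra, the alpha chain of the interleukin 2 receptor. It had 94.5 CPM in diabetic and 22.1 CPM in normoglycemic members, a ratio of 4.28 (3.60 to 5.12), and after thinning 14.8% against 4.57% of cells held it (25.7% against 9.06% unthinned). The gene lies at chr2:11642807-11693193 on the plus strand of GRCm38. Cells called male and cells called female gave ratios of 2.67 and 5.95. In macrophages with Lyve1, Folr2 or Cd163 the level was at most 0.821 CPM in either library, so no ratio is read there.

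The other higher named genes encode chemokines, signalling and survival proteins, a protease and proteins of other kinds. Ccl4, an inflammatory chemokine, had 8052 against 3728 CPM (ratio 2.16, 2.13 to 2.19), with 1.26 in male and 2.94 in female cells. Cxcl10, an interferon-induced ligand of Cxcr3, had 393 against 192 CPM (2.04, 1.91 to 2.18), with 2.06 and 1.65. Tnfsf9, the ligand of the T-cell costimulator 4-1BB, had 444 against 240 CPM, with 1.39 and 3.30. It was also higher in diabetic macrophages with Lyve1, Folr2 or Cd163 (ratio 2.31) and in diabetic dendritic cells (2.22), so this difference was shared with them. Rgs1, a regulator of chemokine receptor signalling, had 1017 against 548 CPM, and Bcl2a1a, an inhibitor of apoptosis with near-identical gene copies that can share reads, 374 against 200 CPM. Plau, the urokinase plasminogen activator, had 211 against 103 CPM (2.05, 1.87 to 2.25). All 6 genes were at least 1.5-fold higher over all members, but Ccl4, Tnfsf9 and Bcl2a1a were not in male cells.

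The other higher genes were of mixed kinds. Zmynd15, a zinc finger gene, had 242 against 104 CPM, Ltc4s, leukotriene C4 synthase, 73.4 against 31.7 CPM, and the collagen gene Col14a1 63.1 against 24.2 CPM. The Col14a1 ratio was 1.32 in male cells, and non-macrophages held 25.6 CPM of it in the diabetic against 2.75 CPM in the normoglycemic library. The ratio of AW112010 was 2.00 (1.83 to 2.20). Ccnd2, a cyclin, had 132 against 67.5 CPM, and Stmn1, a tubulin-binding protein of dividing cells, 97.3 against 49.6 CPM. Stmn1 rested on few cells, since the 5 highest held 41.0% of its diabetic UMIs, and its ratio was 1.05 in male cells. Gm10076 (571 against 176 CPM) and Gm10260 (379 against 181 CPM) were also higher in macrophages with Lyve1, Folr2 or Cd163 (ratios 2.94 and 1.79). Both are predicted genes, and reads shared with similar loci make them uncertain.

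Among the lower genes, Retnla had 348 CPM in diabetic and 1357 CPM in normoglycemic members (ratio 0.257, 0.244 to 0.270). One diabetic cell held 32.8% and 5 held 81.2% of its diabetic UMIs, and after thinning 5.03% against 15.6% of cells held the transcript. The ratio was 0.0314 in male and 0.312 in female cells, and 0.146 in macrophages with Lyve1, Folr2 or Cd163, so a lower Retnla level was shared with them. Maf, a transcription factor of resident macrophages, had 132 against 310 CPM (0.425, 0.390 to 0.463) and was found in 20.9% against 39.7% of thinned cells. Selenop, the selenium carrier, had 522 against 1024 CPM and Gas6 20.7 against 54.0 CPM. Over Retnla, Maf, Selenop and Gas6, the ratios in male and in female cells ranged from 0.0314 to 0.659.

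The other lower named genes were of mixed kinds. Vegfa, the angiogenic factor, had 53.8 against 160 CPM (0.337, 0.295 to 0.383). Hal, histidine ammonia-lyase, had 20.0 against 64.9 CPM, and Slc38a2, an amino acid transporter, 192 against 395 CPM (0.485). The chemokine Ccl22 had 29.7 against 93.8 CPM, but 1 normoglycemic cell held 34.2% of its UMIs and the female ratio was 0.981. Pf4 had 272 against 552 CPM (0.492, 0.463 to 0.522) and turned to a log2 ratio of 0.60 among members without a Mrc1 UMI, while in macrophages with Lyve1, Folr2 or Cd163 its ratio was 1.28. Polr2l, Raph1, Rgl1, Gas2l3, Zfp703 and Gm26917 had ratios from 0.397 to 0.503. Polr2l was also lower in diabetic macrophages with Lyve1, Folr2 or Cd163 (ratio 0.388) and in diabetic dendritic cells (0.523).

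**Figure D5:**
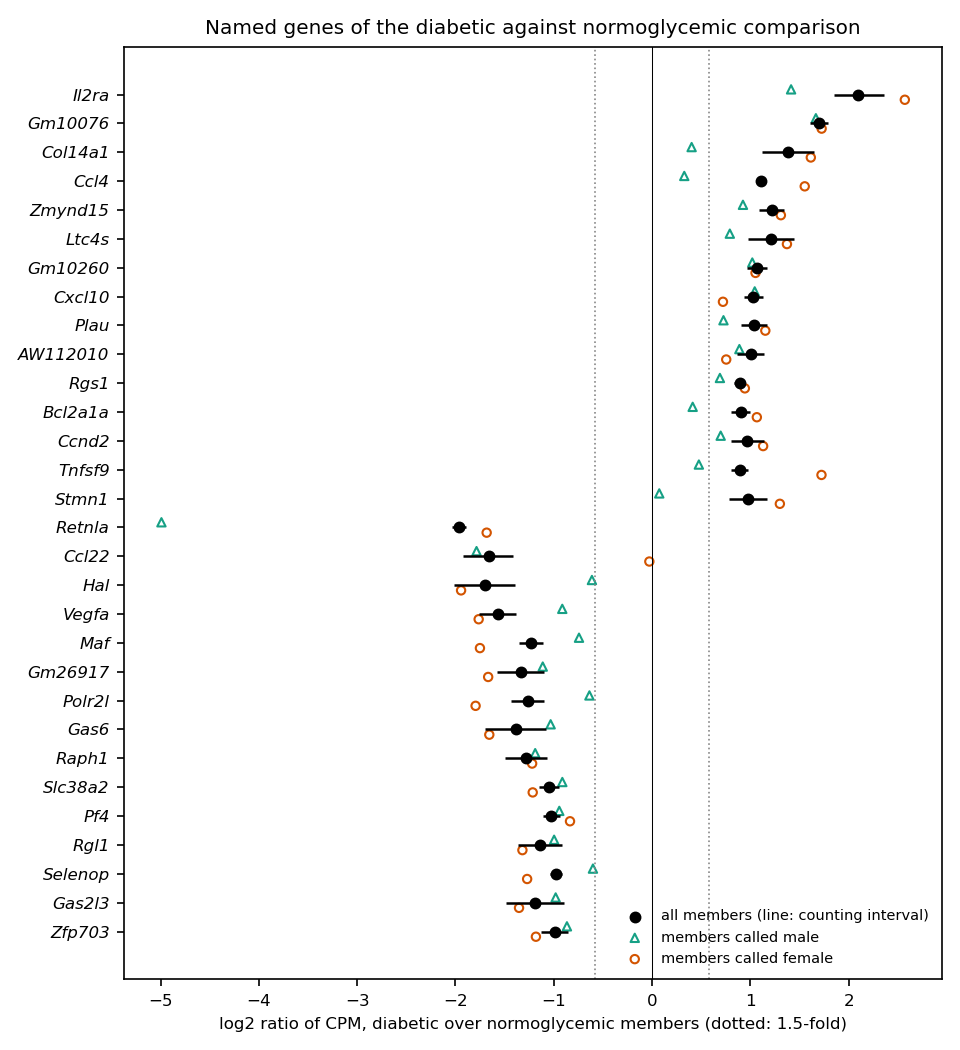
Log2 ratio of CPM, diabetic over normoglycemic members, for the 15 higher and 15 lower named genes: black points and lines give all members with their counting interval, green triangles cells called male and orange circles cells called female, and dotted lines mark 1.5-fold. Sexes give the same direction for every gene, although Ccl22 is near 0 in female cells and Stmn1 in male cells.

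The mix of members moved with this comparison. Mrc1+ and Ccr2+ cells were fewer in the diabetic library (above), and the share of members with Il2ra was larger. Restricted to the 238 diabetic and 460 normoglycemic members with a Mrc1 UMI, 161 genes were higher and 354 lower, and 28 of the 30 named genes stayed past 1.5-fold in the same direction. Among members with a Ccr2 UMI, Ccl4, Zmynd15, Plau, Rgs1, Bcl2a1a and Col14a1 did not reach 1.5-fold (log2 ratios of 0.54, 0.35, 0.17, 0.50, 0.30 and 0.10). Among members without a Ccr2 UMI, 29 of the 30 named genes were past 1.5-fold, and these 6 had log2 ratios of 0.80, 0.80, 0.88, 0.52, 0.72 and 1.39. Weighting the normoglycemic cells to the diabetic class II levels left 179 higher and 542 lower genes and all 30 named genes past 1.5-fold.

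The members of both libraries had to reach the same class II minimum, so the rule itself limits how far their class II genes could differ. None of 5 measured class II genes outside the rule, 9 antigen processing genes or 18 class I presentation genes was past 1.5-fold, against 10.6% of all genes counted in either direction, and their median log2 ratios were -0.21, -0.25 and -0.17, against -0.07 over all genes counted. H2-Eb1 was nearest, at 239 CPM in diabetic and 341 CPM in normoglycemic members (0.701, 0.655 to 0.749). Of 10 measured costimulation genes, against 3.13% higher and 7.46% lower of all genes, Tnfsf9 was higher, and Cd80 (35.4 against 67.8 CPM) and the checkpoint ligand Cd274 (42.0 against 63.7 CPM) were lower. Cd86 was at 207 against 193 CPM (1.07, 0.993 to 1.16).

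The interferon lists are read against the 3.13% of all genes called higher and the 7.46% called lower. In the interferon-gamma list, 3 of 13 measured genes were higher (Gbp5, Cxcl9 and Cxcl10) and Socs1 was lower, with a median of 0.09. Cxcl9 had 198 against 108 CPM, a ratio of 9.44 in male and 0.377 in female cells, so the sexes disagreed. In the type I list, 4 of 19 were higher and none lower, with a median of -0.01. Isg15, a ubiquitin-like modifier, had 218 against 118 CPM (1.85, 1.70 to 2.02), Ifit1 39.0 against 12.2 CPM, Oasl1 28.3 against 17.5 CPM and Ifit2 31.2 against 17.2 CPM. One cell held 35.4% of the diabetic Ifit2 UMIs, and the Ifit2 ratio was 0.680 in male and 0.621 in female cells. Oasl1 had 2.81 in male and 0.831 in female cells.

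The macrophage identity and alternative activation lists held lower genes beyond the 7.46% of all genes called lower, and the second also held higher ones (3.13% of all genes). Of 15 macrophage identity genes, Adgre1 (171 against 288 CPM), Maf, Mertk (33.8 against 64.8 CPM) and Mrc1 (357 against 592 CPM) were lower and none was higher, with a median of -0.27. Mertk clears apoptotic cells, and Adgre1 encodes F4/80. Of 15 alternative activation genes 8 were lower and 2 higher, with a median of -0.63 (-0.03 in female cells). The lower ones were Retnla, Mrc1, Mgl2, Cd209a, Cd209d, Ccl22, Ccl24 and Klf4. Against that direction, the chitinase-like gene Chil3 had 142 against 36.9 CPM (3.85, 3.35 to 4.42) and Ear2 54.4 against 36.1 CPM, with an Ear2 ratio of 0.682 in male and 1.88 in female cells. Chil3 was also higher in macrophages with Lyve1, Folr2 or Cd163 (ratio 3.99) and among non-macrophages (449 against 102 CPM). Complement and phagocytic receptor genes had 3 of 16 lower (Mertk, Gas6 and Stab1), against 7.46% of all genes, with a median of -0.31, and 1 of 7 Fc receptor genes (Fcrls, 53.4 against 105 CPM) was lower with a median of -0.17.

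Cytokines split in 2 directions. Of 21 measured cytokine and growth factor genes, 4 were higher and 9 lower, against 3.13% and 7.46% of all genes, with a median of -0.45. Tnf had 727 against 468 CPM (1.55, 1.48 to 1.63), Il1a 596 against 382 CPM (1.56, 1.48 to 1.64), the epidermal growth factor receptor ligand Areg 102 against 48.7 CPM and the B-cell survival factor Tnfsf13b 61.0 against 35.1 CPM. Male cells gave ratios of 0.936 for Tnf and 0.763 for Il1a. The anti-inflammatory Il10 had 125 against 191 CPM and the interleukin 1 receptor antagonist Il1rn 425 against 741 CPM (0.574, 0.547 to 0.603). Vegfa, Igf1, Osm, Hbegf, Inhba, Nos2 and Ptgs2 were the other lower genes. Il1b, the most abundant of the list, was nearly level at 6208 against 5706 CPM (1.09, 1.07 to 1.10).

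Of 21 measured chemokines 6 were higher (3.13% of all genes) and 5 lower (7.46%), with a median of 0.02. Besides Ccl4, Cxcl9 and Cxcl10, Ccl3 had 2627 against 1599 CPM (1.64, 1.60 to 1.68), with 1.07 in male and 2.23 in female cells, and Cxcl14 23.6 against 11.7 CPM. The follicular chemokine Cxcl13 had 32.7 against 3.68 CPM, of which 1 cell held 56.4% and 75.9%. Ccl8, Ccl22, Ccl24, Cxcl3 and Pf4 were lower. The neutrophil attractant Cxcl2, at 11170 against 10707 CPM, and the monocyte attractant Ccl2, at 566 against 558 CPM, were nearly level. Chemokine and growth factor receptors had 2 of 10 lower (7.46% of all genes), Cxcr4 (265 against 409 CPM) and Csf3r (24.5 against 40.2 CPM), with a median of -0.17.

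Of 24 measured insulin and FOXO pathway genes 6 were lower and none higher in diabetic members, against 7.46% lower and 3.13% higher of all genes counted, with a median of -0.42: Insr, Igf1, Gadd45a, Trib1, Tsc22d3 and Sgk1. The insulin receptor gene Insr had 12.2 CPM in diabetic and 20.8 CPM in normoglycemic members (0.585, 0.431 to 0.786), and the glucocorticoid-induced Tsc22d3 137 against 217 CPM. Foxo1 itself had 12.4 against 13.6 CPM (0.911, 0.659 to 1.25), and 3.17% against 2.81% of thinned cells held it (14.5% against 13.5% unthinned). Glycolysis genes had no member of 17 past 1.5-fold, with a median of -0.04. All 30 nuclear-encoded respiratory chain genes also stayed within 1.5-fold, with a median of 0.25. Of 11 S100 and related genes none was past it, with a median of 0.19.

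The remaining lists stand beside the same 3.13% of all genes called higher and 7.46% called lower. Lipid-associated genes had 1 of 18 higher and 3 lower, with a median of -0.21. Fabp4 was higher at 29.7 against 1.65 CPM, with 51.3% of its diabetic UMIs in 1 cell and a ratio of 0.715 in male cells, and Spp1, Abca1 and Pltp were lower. In the matrix and bone list, Mmp13 (139 against 79.7 CPM), Ocstamp (21.1 against 10.9 CPM) and Plau were higher and Plaur (263 against 440 CPM) and Thbs1 (116 against 323 CPM) lower of 17, with a median of -0.02. The sexes went opposite ways for 2 of these genes, since Mmp13 had a ratio of 0.880 in male and 2.75 in female cells and Thbs1 0.273 and 1.80. Oxidative stress and iron genes had 3 of 19 lower, Hmox1 (98.8 against 233 CPM), Gclc and Slc7a11, with a median of -0.06. Toll-like receptor genes had 1 of 15 lower, Tlr1, a share near the 7.46% of all genes, with a median of -0.34. Cell cycle genes had 3 of 10 higher, Birc5, Mcm5 and Stmn1, with a median of 0.43, which was -0.07 in male cells and -0.08 after thinning.

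Of 24 immediate early genes, which respond within minutes to stimulation or tissue handling, 8 were lower (7.46% of all genes) and none higher, with a median of -0.35. Fos had 1477 against 2217 CPM (0.666, 0.649 to 0.684) and Fosb 403 against 761 CPM, and both were also lower in macrophages with Lyve1, Folr2 or Cd163 (ratios 0.731 and 0.609). The named genes did not follow those macrophages throughout. Ratios of Ccl4, Plau, Zmynd15 and Bcl2a1a there were 0.852, 1.01, 0.876 and 0.911, against 2.16, 2.05, 2.32 and 1.87 in the members, while those of Maf, Slc38a2 and Selenop were 0.665, 0.628 and 0.751 against 0.425, 0.485 and 0.509. The difference between the 2 sets of ratios was not tested.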

How the data were processed

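The authors deposited whole-number UMI counts per gene and cell for 32285 genes and 4 antibody capture features that the labels do not explain. They were made with Cell Ranger against mm10 (GRCm38). Its version is 4.0.0 in the deposited file headers, whereas the submitters' processing notes give 6.0.2. The members, lists and tests were chosen with earlier results of these data known. Of 21776 barcodes, 21208 passed the limits given above. No doublet caller was run. Counts were summed over cells and divided by the sum. Ratios have exact conditional binomial intervals, shares exact Clopper-Pearson and differences Newcombe intervals at 95%. Log2 ratios use 0.5 UMI as pseudocount. Genes at 20 CPM or more in either of the sets compared (within both libraries for members against others) and outside the rule were counted. Named genes needed 50 CPM and a counting interval past 1.5-fold, and, between libraries, 50 UMIs and a level at least that of non-macrophages. They were ranked by the interval bound nearest 1, leaving out sex-linked, mitochondrial, haemoglobin and antigen receptor genes. Thinning drew 2000 UMIs per cell without replacement. The ratio and its interval were tested on simulated data. TMM factors came from edgeR 4.0.16 under R 4.3.3, and all else used Python 3.11.15, numpy 2.4.6, scipy 1.17.1, pandas 2.3.3 and matplotlib 3.10.9. The 23 gene lists and 13 marker lists were summarised by counts and medians, and 1 list gene was not in the feature table. Alternatives changed the limits of the rule, the sex called, depth, scaling and CPM minimum. Subsets by Mrc1, Ccr2, Cd207 or neutrophil transcripts were added after seeing the data.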

Additional observations from a re-analysis of the deposited data

Results flagged for a closer look

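Among the named genes and the list genes past 1.5-fold, several had ratios of diabetic over normoglycemic cells in opposite directions, with both counting intervals wholly past 1.5-fold. With 1 library per group the differences were not tested, and the antibody features are not explained by the labels.

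Among members, Cd207 had a ratio of 2.77 in cells called male and 0.481 in cells called female. Mmp12 had 0.354 in male and 1.88 in female cells, and Cxcl9 9.44 in male and 0.377 in female cells.

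Against other macrophages, Cxcl9 had a ratio of 1.83 in members, 0.349 in macrophages with 3 or more UMIs of Lyve1, Folr2 and Cd163, and 0.304 in macrophages under the class II minimum and both UMI limits. Scimp had 1.69 in members and 0.461 in those with Lyve1, Folr2 or Cd163, and Ccl3 1.64 and 0.634. Stmn1 had 1.96 in members and 0.338 in those macrophages under the limits, and Ifit1 3.20 and 0.205. Against macrophages with 3 or more Gpnmb UMIs, Inhba had 0.259 in members and 8.89 there, Ptgs2 0.618 and 1.99, Cxcl3 0.403 and 4.93, and Thbs1 0.360 and 2.85.

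The antibody capture features were not used in any comparison. In 7.63% of diabetic and 5.27% of normoglycemic members they summed to 20 or more UMIs with 80% or more from 1 feature.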

How the results depend on the processing

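The share of members among macrophages stayed lower in the diabetic library under all 10 alternatives that could change it. It moved to -8.71 points with 0 UMIs of Gpnmb, Lyve1, Folr2 and Cd163 and to -9.46 points in cells called male. For the libraries, genes at least 1.5-fold higher in diabetic members numbered 284 in male cells, 266 in female cells, 490 with thinned cells, 309 without a Mrc1 UMI and 358 without a Ccr2 UMI, and lower ones 746 in female cells, 778 with thinned cells, 624 without a Mrc1 UMI and 928 without a Ccr2 UMI. Without a CPM minimum they were 3091 and 3570, and at 50 CPM 65 and 201. For members against other macrophages, higher and lower genes numbered 280 and 269 with TMM, 1103 and 2220 without a CPM minimum, 110 and 272 at 50 CPM, 399 and 1373 without a Mrc1 UMI, and 332 and 1074 without a Ccr2 UMI. Smaller subsets hold fewer UMIs, and beyond that the cause was not tested. Of the 30 genes named between the libraries, Pf4 alone reversed, to a log2 ratio of 0.60 in members without a Mrc1 UMI. Some list genes and list medians also changed sign between the sexes or after thinning, as with Tnf, Il1a and the cell cycle list. No paired analysis was possible because each group is 1 library and the labels give no shared replicates. After thinning, a count of 0, taken as 3 counts of the total, limits the cells with a UMI to 0.794% of diabetic and 0.527% of normoglycemic members, not the cells expressing a gene.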
